A study of Neurospora crassa with 18 samples.

Results

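In the filamentous fungus *Neurospora crassa*, 8 transporter genes were followed through phosphate starvation, out of 9774 genes in the expression table. The 8 genes are *trm-50* (NCU01055), NCU09767, *mfs-10* (NCU04809), NCU09027, NCU08715, *mfs-16* (NCU00782), NCU04446 and *mfs-24* (NCU07343). They were chosen by gene identifier as transporter genes that the study named for higher expression without phosphate. Their rise in Experiment 1 is thus a description, and the calls given for it are not independent evidence. All 8 were found in the table and all 8 passed the filter on low values in each of the 3 experiments.

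RNA was measured in 18 libraries of mycelia, with 3 independently inoculated cultures in each of 6 conditions. Every culture grew for 24 h in a phosphate-rich sucrose medium at 25°C in constant light, and was then washed and moved to Fries medium. Experiment 1 compared wild-type mat A cells (FGSC 2489) at 0 mM and at 7 mM phosphate after 4 h. Experiment 2 compared the same wild type with Δ*nuc-1* mat a cells (FGSC 11448, nuc-1::HygR), both at 0 mM phosphate for 4 h. Experiment 3 compared wild-type mat a cells (FGSC 4200) with Δ*nuc-3* mat a cells (FGSC 11356, nuc-3::HygR), both at 0 mM phosphate for 12 h. Each deletion strain carries a hygromycin resistance cassette in place of the gene and each was represented by a single strain. In Experiment 2 the loss of *nuc-1* and the mating type cannot be told apart. Experiment 1 was sequenced at another center than Experiments 2 and 3, and all 3 experiments differ in sequencer and read length, so values from different experiments are set side by side here and were not tested against each other.

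Fungi meet phosphate shortage by making more high-affinity phosphate transporters, by secreting phosphatases and nucleases that free phosphate from organic compounds, and by drawing on stored polyphosphate. In *N. crassa* this program is switched on by NUC-1, a transcription factor of the basic helix-loop-helix class. It is held back in the presence of phosphate by the cyclin PREG and its kinase MDK-1, and the kinase inhibitor NUC-2 releases it when phosphate runs out. NUC-3 is a second basic helix-loop-helix factor, which the study followed at a later time of starvation. The major facilitator superfamily (MFS) is a large family of membrane proteins that carry small solutes such as sugars, vitamins and phosphate, and 7 of the 8 genes are MFS genes.

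The 8 genes lie on 6 chromosomes of the NC12 assembly and do not form a cluster. *trm-50* is annotated on chromosome V from 2779484 to 2781851, and its protein belongs to the chromate ion transporters and may also carry phosphate. NCU09767, whose protein resembles phosphate transporters, lies on chromosome II from 4292155 to 4294497. *mfs-10*, a predicted phospholipid transporter gene, lies on chromosome VI from 902542 to 904978. NCU09027 and NCU08715 encode proteins that resemble nicotinic acid transporters, and lie on chromosome VII from 373867 to 375660 and on chromosome II from 3773044 to 3776758. *mfs-16*, a predicted pantothenate transporter gene, lies on chromosome I from 7194841 to 7196850. NCU04446 and *mfs-24* lie on chromosome IV, from 3329245 to 3331055 and from 4301691 to 4304060. *mfs-24* has 2 transcripts in the table, which were summed, and the other 7 genes have 1 each.

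Levels are given as deposited, in TPM, a share of each library that is scaled for transcript length and can be compared between genes. Every library has the same total, so the values hold no read counts and the depth behind them is unknown. Between 8349 and 9119 genes had a value above 0 in each library, and no pair of libraries held identical values. The deletion strains matched their labels: *nuc-1* was at 23.4 to 41.3 TPM in the wild-type libraries of Experiment 2 and at 1.87 to 2.25 TPM in Δ*nuc-1*, and *nuc-3* was at 108 to 227 TPM in the wild-type libraries of Experiment 3 and at 0.397 to 1.46 TPM in Δ*nuc-3*. *hex-1*, the gene of the hyphal Woronin body protein, was at 2647 to 6842 TPM in all 18 libraries. Markers of conidiation, the making of asexual spores, were also present and are given beside the results they move with.

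In Experiment 1 all 8 transporter genes were higher in cells without phosphate than in cells given 7 mM, and no library of one condition overlapped the other for any of them. The genes with the largest ratios were *trm-50* at 43.9-fold and NCU09767 at 35.2-fold. *mfs-10* (18.01-fold) and NCU09027 (17.4-fold) came next and were too close to rank, since their order turned when single libraries were left out, with 17.8-fold and 19.0-fold without 7 mM replicate 2. The other 4 genes were between 4.83-fold and 12.8-fold higher. A ratio here is of mean TPM after each library was rescaled by its median ratio to the other libraries of the experiment. Without that rescaling the median gene was 0.41 log2 units higher in starved cells, against 0.002 with it.

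*trm-50* was at 5.21, 5.16 and 5.51 TPM in the 7 mM libraries and at 371, 282 and 303 TPM in the 0 mM libraries. Its ratio was 43.9-fold, a log2 fold change of 5.24 with a standard error (SE) of 0.078. NCU09767 was at 6.64, 7.84 and 6.42 TPM with phosphate and at 363, 306 and 338 TPM without it. These 2 genes were thus at similar levels to each other in both media. The rescaled ratio of NCU09767 was 35.2-fold (log2 fold change 4.98, SE 0.082). *mfs-10* was already at 27.1, 28.3 and 30.9 TPM with phosphate, and reached 812, 622 and 692 TPM without it. It was the most abundant of the 8 genes in both media of Experiment 1, and its ratio was 18.01-fold (log2 fold change 4.13, SE 0.081).

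The other 5 genes started from levels between those of a barely detected and a moderately expressed gene. The nicotinic acid transporter homolog NCU09027 was at 0.609, 0.865 and 0.734 TPM at 7 mM and at 19.3, 17.5 and 15.6 TPM at 0 mM, a ratio of 17.4-fold. On the log2(TPM + 1) scale of the fit its change was 3.10 (SE 0.10), which understates a ratio that starts below 1 TPM. *mfs-16* was similar, with 1.07, 0.681 and 0.821 TPM at 7 mM and 12.6, 17.8 and 14.6 TPM at 0 mM, a ratio of 12.8-fold. The second nicotinic acid transporter homolog, NCU08715, had the smallest ratio of the 8 genes. It was at 5.86, 5.98 and 5.56 TPM with phosphate and at 30.9, 46.3 and 36.9 TPM without it, a ratio of 4.83-fold that stayed between 4.23-fold and 5.39-fold when each library was left out in turn. NCU04446 was at 12.7, 14.3 and 13.8 TPM with phosphate and at 78.8, 113 and 99.4 TPM without it (5.25-fold). *mfs-24* was at 3.44, 3.31 and 4.11 TPM with phosphate and at 30.7, 30.1 and 29.6 TPM without it (6.11-fold), and its 3 starved libraries lay closer together than those of any other of the 8 genes.

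**Figure D1:**
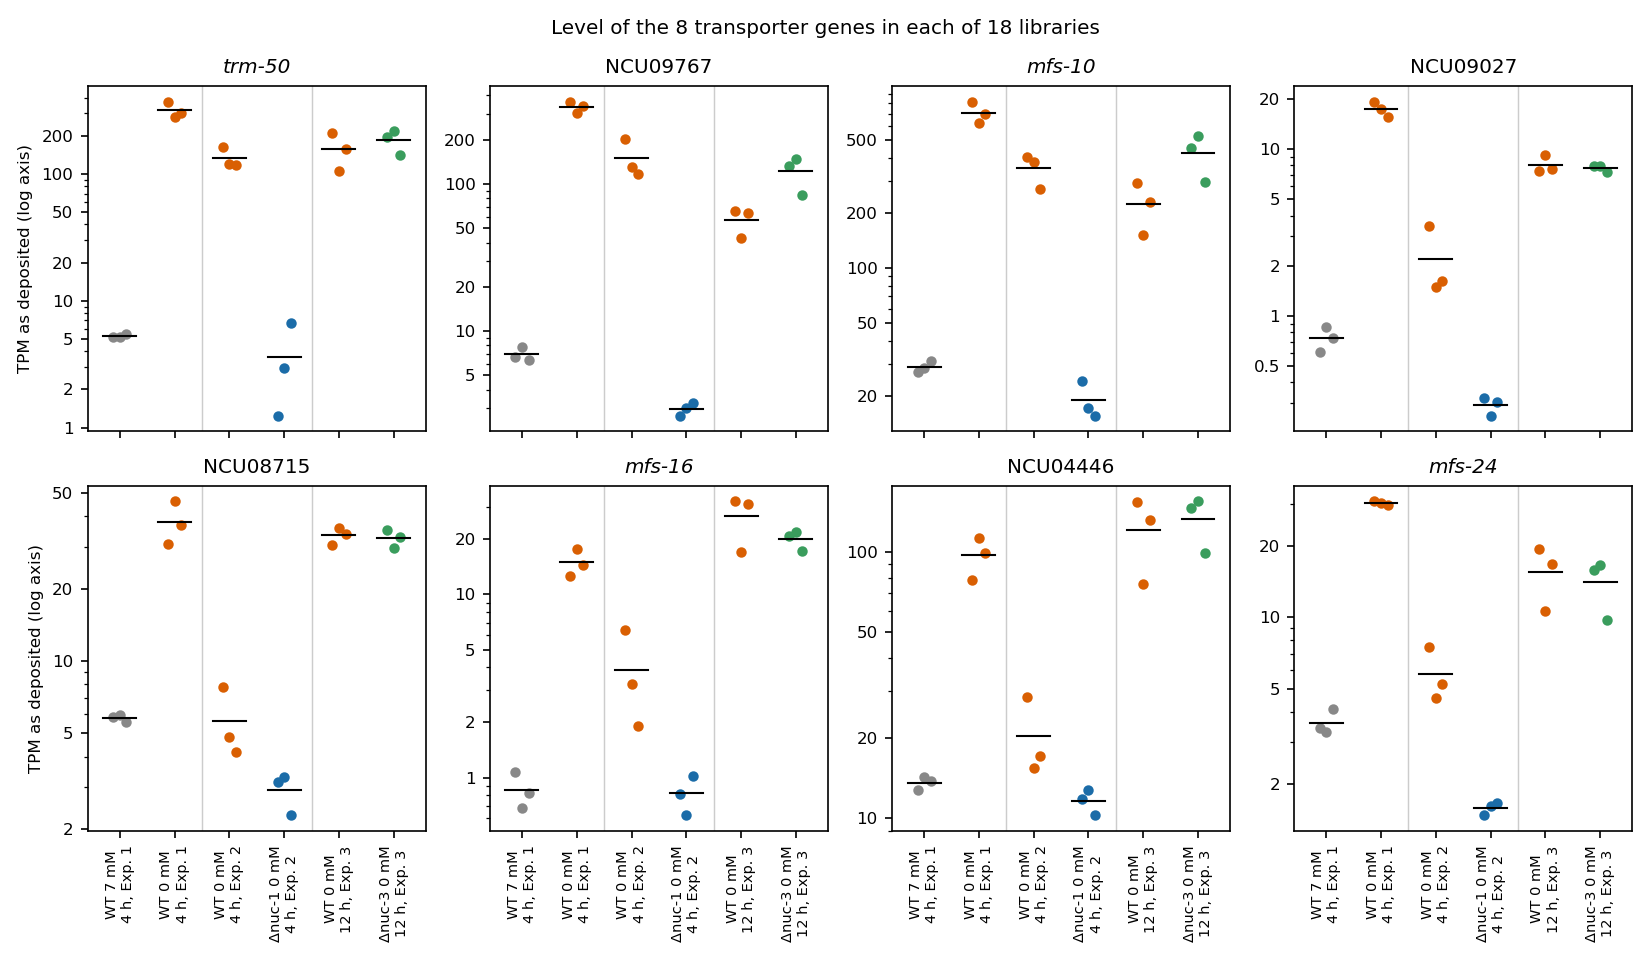
TPM as deposited (vertical log axis, a separate range for each gene) of the 8 transporter genes in 18 libraries, where each point is 1 library and each bar the mean of the 3 libraries of a condition, with gray for wild type at 7 mM, orange for wild type at 0 mM, blue for Δ*nuc-1* and green for Δ*nuc-3*, and gray lines separate the 3 experiments. *trm-50* lies between 5.16 and 5.51 TPM at 7 mM and between 282 and 371 TPM at 0 mM in Experiment 1, while NCU08715 is near 5.80 TPM at 7 mM and near 5.61 TPM in the starved wild type of Experiment 2.

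All 8 genes met the call used throughout, which asks for a Benjamini-Hochberg adjusted p under 0.05 from limma across the genes tested, for a ratio of 4 or more (2 or more in Experiment 3) and for 10 TPM or more as the mean of one of the conditions. Experiment 1 tested 8396 genes, and 3.75% of them were called higher and 3.59% lower at 0 mM, while 62.6% were higher with no overlap between the conditions. Nothing is read from the 8 genes' count, because they were named for this rise. Their median log2 fold change was 2.94, beside 0.002 over all genes tested.

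Conidiation markers rose in the same libraries. The summed level of *con-6*, *con-8*, *con-10* and *eas* was 40.9 to 56.0 TPM at 7 mM and 5075 to 6691 TPM at 0 mM, and all 4 of these genes were called higher. Most of that sum is *eas*, the gene of the hydrophobin that coats conidia, at 22.0 to 34.1 TPM and 4689 to 6351 TPM. No marker was listed at 0 in either condition. The part of developing spores in the rise of the 8 transporter genes was not tested, and more cells of a kind cannot be told apart from more RNA per cell in these bulk samples.

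In Experiment 2 all 8 genes had lower means in Δ*nuc-1* than in wild type, and 3 of them were called. *trm-50*, NCU09767 and *mfs-10* were 16.2-fold to 43.7-fold lower in Δ*nuc-1* than in starved wild-type cells, and these were the 3 called. The ratios of the other 5 were 1.53-fold to 6.43-fold, and 4 of these 5 could not be called because they stayed under 10 TPM in both strains. Without a TPM minimum NCU09027 alone of them was called, as the ratios of the rest were under 4. In each of the 8 genes every Δ*nuc-1* library lay below every wild-type library. The study named the former 3 genes as depending on NUC-1 from these same samples, so their values are a description, while the other 5 were not named for this comparison.

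NCU09767 had the largest ratio. It was at 204, 130 and 118 TPM in wild type and at 2.67, 2.99 and 3.23 TPM in Δ*nuc-1*, which is 43.7-fold lower (log2 fold change −5.05, SE 0.18). *mfs-10* was at 407, 380 and 270 TPM in wild type and at 24.2, 17.1 and 15.6 TPM in Δ*nuc-1*, which is 16.2-fold lower (log2 fold change −3.96, SE 0.16). *trm-50* was at 162, 119 and 118 TPM in wild type and at 1.24, 2.94 and 6.71 TPM in Δ*nuc-1*, so its 3 deletion libraries were far more scattered than those of the other 2 genes. Its ratio was 31.0-fold lower (log2 fold change −4.85, SE 0.41), and 57.4-fold lower without Δ*nuc-1* replicate 3, the library with 6.71 TPM. In Δ*nuc-1* cells without phosphate, the 3 genes stood at 0.426 to 0.686 times their mean deposited level in wild-type cells with 7 mM phosphate. The other 5 genes stood at 0.398 to 0.955 times theirs.

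NCU09027 was at 3.46, 1.503 and 1.61 TPM in wild type and at 0.323, 0.253 and 0.304 TPM in Δ*nuc-1*. The ratio of 6.43 was past 4, and the log2 fold change of −1.16 had an adjusted p of 0.016 in limma, but the gene stayed under 10 TPM in both strains and could not be called. *mfs-16* was at 6.42, 3.24 and 1.91 TPM in wild type and at 0.811, 0.623 and 1.02 TPM in Δ*nuc-1* (3.96-fold lower, limma adjusted p = 0.026). For these 2 genes the adjusted p reached 0.054 and 0.086 when single libraries were left out. *mfs-24* was at 7.53, 4.57 and 5.24 TPM in wild type and at 1.48, 1.62 and 1.66 TPM in Δ*nuc-1* (3.17-fold lower, limma adjusted p = 0.0053), and it kept an adjusted p of at most 0.024 whichever library was left out.

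The other 2 genes differed least. NCU08715 was at 7.81, 4.83 and 4.18 TPM in wild type and at 3.15, 3.29 and 2.29 TPM in Δ*nuc-1*, and its log2 fold change of −0.58 had a 95% interval from −1.06 to −0.09 and a limma adjusted p of 0.085. NCU04446 was at 28.6, 15.5 and 17.1 TPM in wild type and at 11.8, 12.8 and 10.3 TPM in Δ*nuc-1*, with a log2 fold change of −0.54 (95% interval −0.998 to −0.078, limma adjusted p = 0.090). Both intervals exclude a 4-fold difference. However, the starved wild type of Experiment 2 stood little or not at all above the 7 mM wild type of Experiment 1 for these genes. The means were 5.61 TPM beside 5.80 TPM for NCU08715, and 20.4 TPM beside 13.6 TPM for NCU04446. With so little rise to lose, these intervals cannot tell whether the rise of these genes in Experiment 1 depends on NUC-1. NCU04446 is the only one of the 5 genes that reached 10 TPM in either strain, so it alone passed the TPM minimum. The other 4 could not have been called at any ratio.

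**Figure D2:**
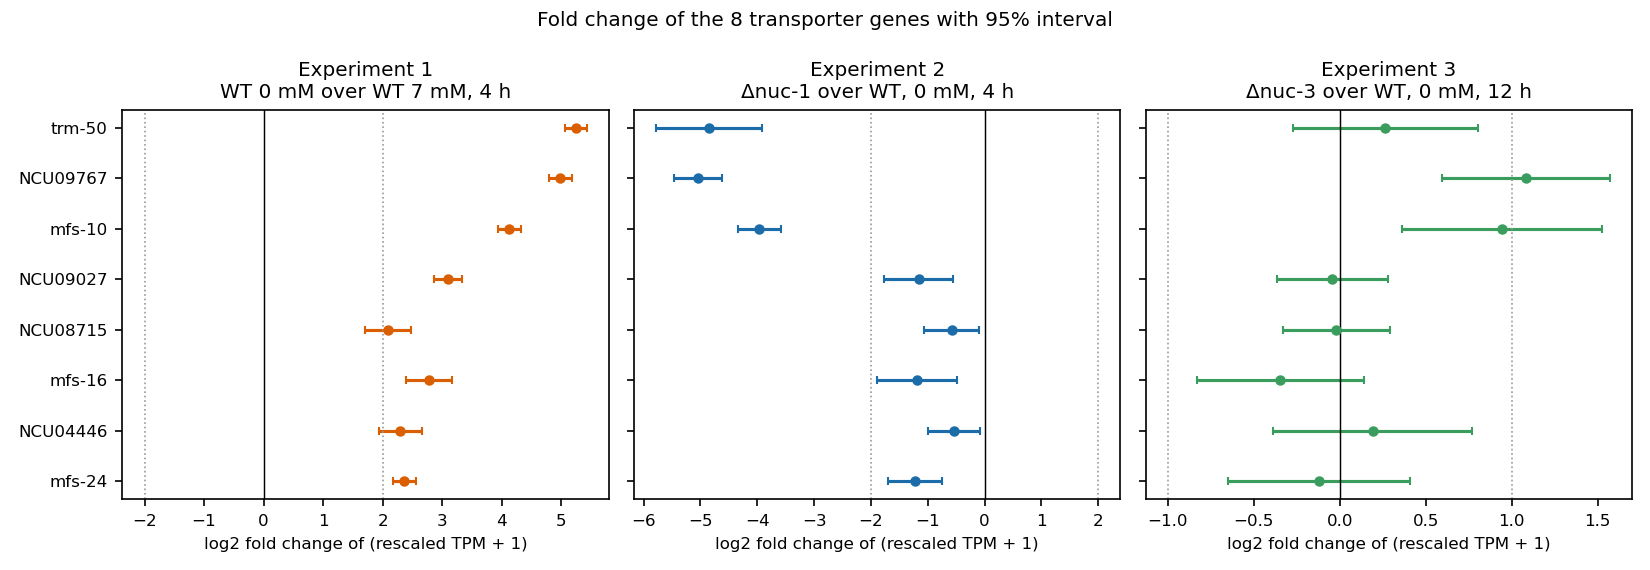
Log2 fold change of rescaled TPM + 1 (horizontal axis, a separate range for each panel) of the 8 transporter genes in the 3 comparisons, with 3 libraries in each condition, where points are the limma estimates, bars their 95% intervals, and dotted lines mark the fold used for a call, 4-fold in the left and middle panels and 2-fold in the right panel. In the middle panel *trm-50*, NCU09767 and *mfs-10* lie between −5.05 and −3.96 and the other 5 between −1.23 and −0.54.

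Over the 8037 genes tested in Experiment 2, 0.821% were called lower in Δ*nuc-1* and 1.28% higher. At a 2-fold threshold 3.45% were called lower, and the same 3 transporter genes met it. Non-overlapping lower values were common, at 29.6% of all genes tested, against 8 of the 8 transporter genes. The median log2 fold change was −1.21 over the 8 genes and 0.005 over all genes tested.

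One wild-type library stood apart for these genes. Wild-type replicate 1 had the highest value of its condition for all 8 genes, and its *con-10* level was 22.6 TPM against 6.14 and 7.12 TPM in the other 2 libraries. Without it, *trm-50*, NCU09767 and *mfs-10* remained called at 29.0-fold, 37.8-fold and 15.6-fold lower, and *mfs-16* and NCU09027 had limma adjusted p-values of 0.067 and 0.0498. The summed conidiation markers were 74.5 to 119.6 TPM in wild type and 14.2 to 20.4 TPM in Δ*nuc-1*. *eas* and *con-10* were called lower in Δ*nuc-1*, and none of the 4 markers was listed at 0. Their part in the differences of the 8 genes was not tested.

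The starved wild type was the same strain, medium and time in Experiments 1 and 2, and the 8 genes did not stand at the same level in both. *trm-50*, NCU09767 and *mfs-10* had a mean 2.01 to 2.39 times as high in Experiment 1 as in Experiment 2. The other 5 genes had a mean 3.89 to 7.97 times as high. Set beside the 7 mM libraries of Experiment 1, the starved wild type of Experiment 2 was 12.3-fold to 25.2-fold higher in the former 3 genes and 0.967-fold to 4.50-fold in the other 5. NCU08715 is the extreme, with means of 5.61 TPM in the starved wild type of Experiment 2 and 5.80 TPM at 7 mM in Experiment 1, and the 2 sets of libraries overlapped. NCU04446 was at 20.4 TPM against 13.6 TPM, and *mfs-24* at 5.78 TPM against 3.62 TPM. The conidiation markers also differed between the starved wild types of the 2 experiments, with *eas* at 4689 to 6351 TPM in Experiment 1 and at 49.1 to 83.0 TPM in Experiment 2. Culture, sequencing center and read length all changed between the experiments and cannot be told apart.

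Across the 6 conditions the order of mean levels differed between the genes, except that NCU09027 and *mfs-24* shared theirs. Many neighbors in these orders overlapped. All 8 genes had their lowest mean in Δ*nuc-1*. *trm-50*, NCU09767 and *mfs-10* were highest in the starved wild type of Experiment 1, apart from every other condition. For *trm-50* the ranges of Δ*nuc-3*, wild type at 12 h and starved wild type of Experiment 2 overlapped from one to the next, at means of 185, 158 and 133 TPM, and the ranges of 7 mM wild type and Δ*nuc-1* also overlapped. For NCU09767 only Δ*nuc-3* and the starved wild type of Experiment 2 overlapped, at means of 122 and 150 TPM, while wild type at 12 h was lower at 57.1 TPM. NCU09027 and *mfs-24* were also highest at 4 h in Experiment 1, at means of 17.5 and 30.2 TPM, apart from the 12 h libraries at 7.73 to 8.10 TPM and 14.1 to 15.6 TPM.

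For the remaining 3 genes the 12 h libraries overlapped those of the starved wild type at 4 h in Experiment 1. NCU08715 was at 38.0 TPM at 4 h in Experiment 1 and at 33.3 and 32.5 TPM at 12 h in wild type and Δ*nuc-3*, with overlap between neighbors. *mfs-16* was highest in the wild type at 12 h, at 32.3, 17 and 31.4 TPM, with a mean of 26.9 TPM beside 15.0 TPM at 4 h in Experiment 1. NCU04446 was at 154, 75.6 and 132 TPM in wild type at 12 h beside a mean of 97.1 TPM at 4 h. Each of these neighbors in the order overlapped.

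In Experiment 3 none of the 8 genes was called between Δ*nuc-3* and wild type at 12 h of starvation. NCU09767 and *mfs-10* had the largest differences and were the only 2 of the 8 whose conditions did not overlap. Over all genes tested, 11.3% were higher in Δ*nuc-3* without overlap, so nothing is read from this count. The other 6 genes had ratios from 0.759 to 1.18. Of the 8 genes 2 had an unadjusted limma p under 0.05, and 1736 of the 8005 genes tested did.

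NCU09767 was at 65.1, 42.8 and 63.5 TPM in wild type and at 133, 149 and 84.3 TPM in Δ*nuc-3*. It was 2.16-fold higher in Δ*nuc-3* (log2 fold change 1.08, SE 0.21, 95% interval 0.59 to 1.57), and its limma adjusted p of 0.057 missed the threshold. The call turned with the libraries in the fit. With all 18 libraries sharing one estimate of spread, the limma adjusted p was 0.0019 and the gene was called. Leaving out each of the 6 libraries in turn gave ratios of 1.97 to 2.44 and limma adjusted p-values of 0.060 to 0.20. This gene was one that the study named as higher in Δ*nuc-3* cells from these samples.

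*mfs-10* was at 293, 152 and 229 TPM in wild type and at 453, 526 and 297 TPM in Δ*nuc-3*. The highest wild-type library and the lowest Δ*nuc-3* library differed by only a few TPM. The ratio was 1.92-fold, and the log2 fold change of 0.94 (SE 0.24) had a limma adjusted p of 0.11. *trm-50* was at 211, 106 and 158 TPM in wild type and at 195, 219 and 140 TPM in Δ*nuc-3*, with overlapping conditions and a log2 fold change of 0.27 (95% interval −0.27 to 0.80, limma adjusted p = 0.53).

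The other 5 genes differed little between Δ*nuc-3* and wild type. NCU09027 was at 7.42, 9.21 and 7.66 TPM in wild type and at 7.91, 7.94 and 7.34 TPM in Δ*nuc-3*, and the 95% interval of its log2 fold change ran from −0.37 to 0.28. NCU08715 was at 30.5, 35.8 and 33.8 TPM and at 35.2, 29.6 and 32.8 TPM, with an interval from −0.33 to 0.29. *mfs-16* was the one with the lowest ratio, 0.759, at 21.0, 21.9 and 17.2 TPM in Δ*nuc-3* (95% interval −0.83 to 0.14, limma adjusted p = 0.38). NCU04446 was at 146, 155 and 98.9 TPM in Δ*nuc-3* (interval −0.39 to 0.77), and *mfs-24* at 15.8, 16.6 and 9.75 TPM beside 19.3, 10.6 and 16.8 TPM in wild type (interval −0.65 to 0.41). Each of these 5 intervals excludes a 2-fold change in either direction on the log2(TPM + 1) scale.

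Experiment 3 tested 8005 genes, of which 0.637% were called higher in Δ*nuc-3*, 0.0874% were called lower and 11.3% were higher without overlap. The median log2 fold change was 0.09 over the 8 genes and −0.01 over all genes tested. The summed conidiation markers were 4408 to 7578 TPM in wild type and 14835 to 24126 TPM in Δ*nuc-3*. Most of that sum is *eas*, which was 3.43-fold higher and was not called (limma adjusted p = 0.054). *con-8* was 1.46-fold and *con-10* 1.12-fold higher, and neither was called. Only *con-6* was called higher (2.11-fold), and the study lists it among the genes that NUC-3 represses directly. None of the 4 was listed at 0. The part of these markers in the differences of NCU09767 and *mfs-10* was not tested.

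In each strain one library was low and another high for most of these genes. Wild-type replicate 2 was the lowest of its condition for 6 of the 8 genes, the exceptions being NCU09027 and NCU08715. Δ*nuc-3* replicate 3 was the lowest for 7 of the 8. Wild-type replicate 1 was the highest for 6 of the 8, and Δ*nuc-3* replicate 2 for 7 of the 8. Leaving out only the 2 low libraries together was a choice made after the values were seen. Without them NCU09767 was 2.23-fold higher and was called (limma adjusted p = 0.030), and *mfs-10* was 1.90-fold higher (limma adjusted p = 0.095).

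A ratio within a library removes what its genes share, and was taken after the values were seen. NCU09767 was at 0.308, 0.404 and 0.401 times the TPM of *trm-50* in the 3 wild-type libraries at 12 h, and at 0.684, 0.680 and 0.601 times in Δ*nuc-3*. The ratio of NCU09767 to *trm-50* was thus 1.78-fold higher in Δ*nuc-3*. *mfs-10* was at 1.39, 1.43 and 1.44 times the TPM of *trm-50* in wild type and at 2.32, 2.40 and 2.12 times in Δ*nuc-3*, which is 1.60-fold higher. The 2 strains did not overlap in either ratio. The ratios of *mfs-16* and *mfs-24* to *trm-50* did not overlap either, but were lower in Δ*nuc-3*. They were 0.153 to 0.198 in wild type against 0.0999 to 0.123 for *mfs-16*, and 0.0915 to 0.106 against 0.0695 to 0.0810 for *mfs-24*. Those of NCU09027, NCU08715 and NCU04446 overlapped. The ratios of NCU09767 and *mfs-10* each had p = 0.1 in a two-sided exact permutation test. That is the smallest p that 3 libraries against 3 can give, so neither could pass 0.05. At 4 h without phosphate the ratio of NCU09767 to *trm-50* was 0.978 to 1.12 in Experiment 1 and 0.993 to 1.26 in Experiment 2, so the lowest values were those of wild type at 12 h.

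**Figure D3:**
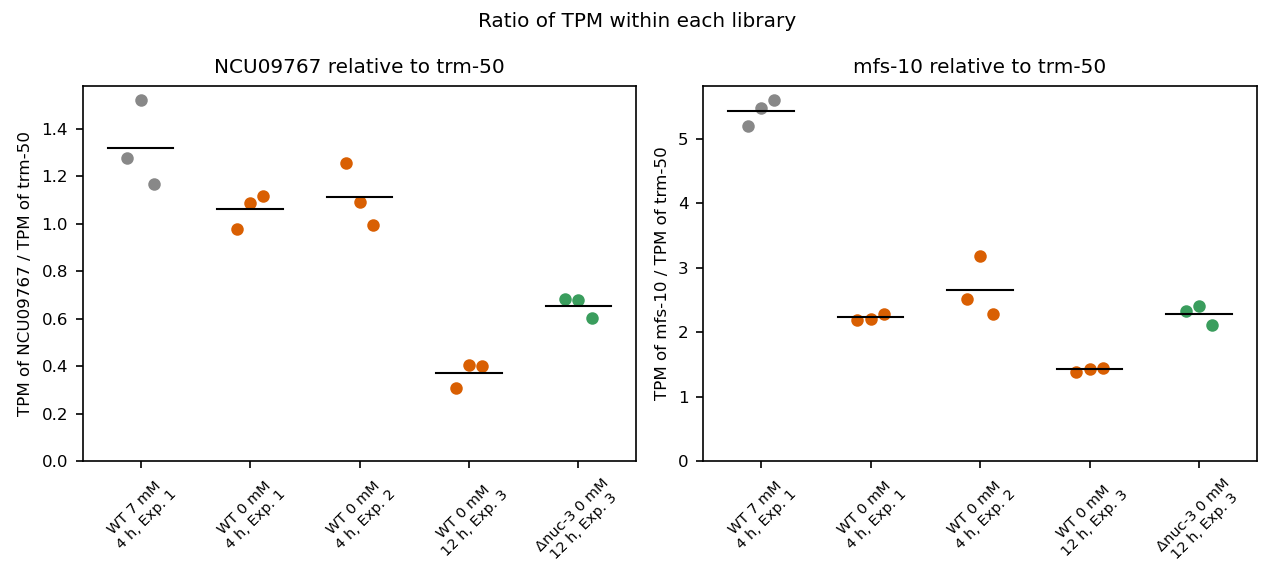
TPM of NCU09767 (left) and of *mfs-10* (right) divided by the TPM of *trm-50* in the same library (vertical axes, from 0), for 5 of the 6 conditions, where points are libraries, bars are means of 3, and colors are gray for 7 mM wild type, orange for 0 mM wild type and green for Δ*nuc-3*. Δ*nuc-1* is left out because *trm-50* was at 1.24 to 6.71 TPM there, and the wild-type libraries at 12 h lie below the Δ*nuc-3* libraries in both panels, at 0.308 to 0.404 against 0.601 to 0.684 on the left.

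The 8 genes were also compared with every other gene by Pearson's r of log2(TPM + 1) over the 18 libraries. For this, TPM were rescaled by the median of ratios over all 18 libraries together. The 8167 genes whose mean reached 1 TPM were used. These r values describe a likeness of pattern only. The libraries share experiments and fall into low and high groups, so a high r is easily reached and no p is given. The genes most like *trm-50* were NCU09631 (r = 0.986), which the study describes as having an alkaline phosphatase domain and also lists with predicted nuclease genes, the high-affinity phosphate transporter gene *pho-5* (0.985) and *gdp-1* (0.984). NCU09767 and *mfs-10* were each other's most similar gene, with r = 0.988. Next for NCU09767 were the high-affinity phosphate transporter gene *pho-4* and NCU02127 (both 0.980), and for *mfs-10* NCU06436 (0.980) and NCU09525 (0.979), a predicted nuclease gene.

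The other 5 genes had other neighbors in pattern. NCU09027 was most like *con-10* (r = 0.991), then NCU00130 (0.984) and NCU07723 (0.983). *mfs-24* was most like NCU08356 (0.988), NCU09429 (0.985) and *ph7* (0.984). NCU08715 was most like NCU05148 (0.989), NCU02459 (0.988) and NCU08516 (0.987), and *mfs-16* was most like NCU05770 (0.989), NCU06681 (0.988) and NCU00825 (0.984). NCU04446 was most like NCU09856 (0.990), *cea-6* (0.987) and NCU16917 (0.986).

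Among the 8 genes themselves, r was 0.960 to 0.988 between *trm-50*, NCU09767 and *mfs-10*, and 0.873 to 0.972 between the other 5. Between a gene of the 3 and a gene of the 5 it was 0.660 to 0.882, which overlaps the range between the other 5. *mfs-24* had r = 0.882 with *trm-50*, beside 0.873 with *mfs-16* and 0.883 with NCU04446. Its r was higher with NCU08715 (0.910) and NCU09027 (0.969). With *pho-2*, the alkaline phosphatase gene that is a classical target of NUC-1, r was 0.928 to 0.974 for the 3 and 0.745 to 0.868 for the 5. With *eas* the order was the other way, at 0.705 to 0.806 for the 3 and 0.893 to 0.971 for the 5. With *con-10* the ranges nearly met, at 0.840 to 0.876 for the 3 and 0.885 to 0.991 for the 5. The 3 and the 5 were set apart by the call in Δ*nuc-1*, and the libraries behind that call are among those correlated. High r among the 3 and with *pho-2*, which was also called lower in Δ*nuc-1*, is thus partly built in. It is not independent evidence that the genes form separate groups.

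**Figure D4:**
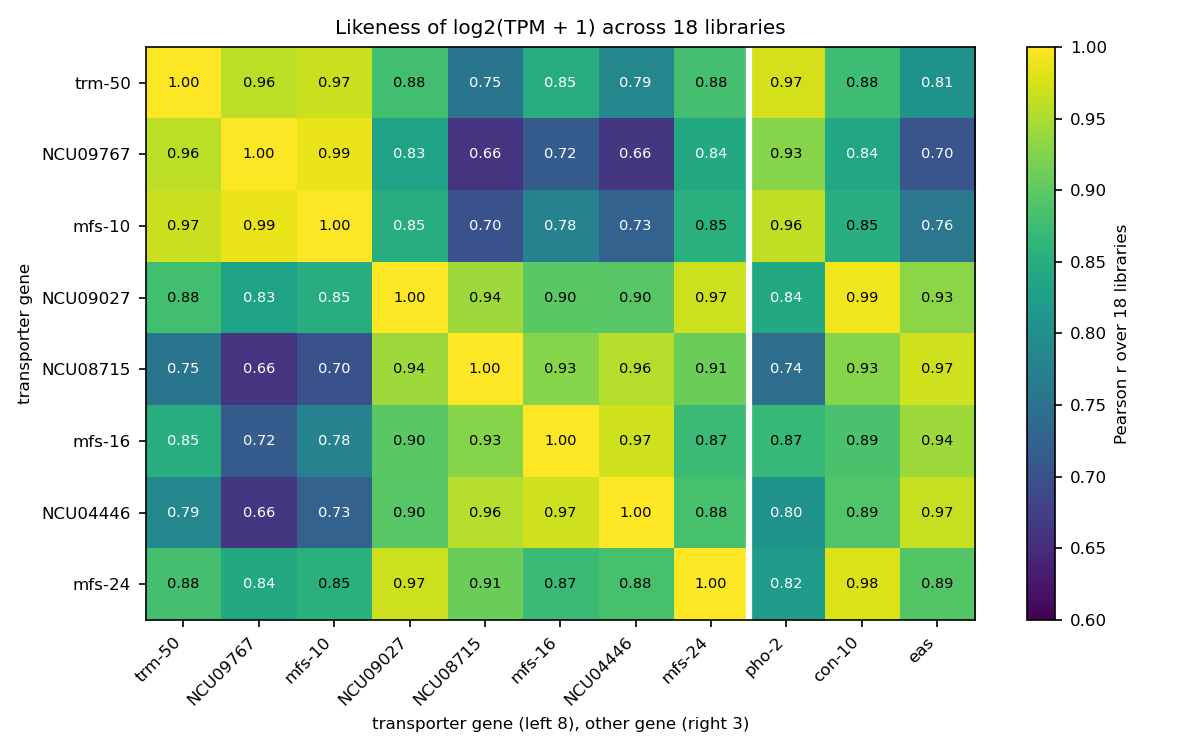
Pearson's r of log2(rescaled TPM + 1) over 18 libraries, printed in each cell and shown by color from 0.6 to 1. The left 8 columns hold each pair of the 8 transporter genes. The right 3 columns set each of them beside *pho-2*, *con-10* and *eas*. The upper 3 genes have r of 0.960 to 0.988 with each other and 0.705 to 0.806 with *eas*, and the lower 5 have r of 0.893 to 0.971 with *eas*. With *con-10* r is 0.840 to 0.876 for the upper 3 and 0.885 to 0.991 for the lower 5.

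The phosphate pathway gives the scale for these values. Of 10 pathway genes, 5 were called higher at 0 mM in Experiment 1, 8 were called lower in Δ*nuc-1*, and 2 were called higher and 1 lower in Δ*nuc-3*. The lower one in Experiment 3 is *nuc-3* itself, and *nuc-1* itself is 1 of the 8 in Experiment 2. In Experiment 1 the largest was *pho-2* at 368-fold, followed by the phosphatase gene *pho-3* at 286-fold and the transporter genes *pho-5* at 267-fold and *pho-4* at 204-fold. In Experiment 2 *pho-5* was 317-fold lower and *pho-4* 294-fold lower. In Experiment 3 *pho-7*, an MFS phosphate transporter gene, was 23.3-fold higher and *nuc-2* 3.00-fold higher in Δ*nuc-3* (limma adjusted p = 0.00079 and 0.0090). *pho-2* was 2.64-fold higher in Δ*nuc-3* and narrowly missed a call (limma adjusted p = 0.056). The study reports *pho-2* as repressed by NUC-3, also by RT-qPCR, so a gene not called here may still differ. The median log2 fold change of the list was 3.00, −3.67 and 0.31 in the 3 experiments.

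A list of 18 other transporter genes was drawn from those the study named from these samples, so their counts are not independent evidence of a direction. The list is not complete. It leaves out the methionine permease gene *aap-7*, which the study reports as directly repressed by NUC-1. In Experiment 1, 12 of the 18 were called higher and 0 lower, with a median log2 fold change of 2.22. In Experiment 2, 0 were called higher and 5 lower (*pho-5*, *pho-4*, *pho-7*, *sut-28* and *ph7*), with a median of −1.29. In Experiment 3, 4 were called higher (*pho-7*, *mfs-12*, *trm-1* and *aap-17*) and 2 lower (NCU09698 and *sut-28*), with a median of −0.11. *sut-28* was called lower in both deletion strains, at 4.51-fold in Δ*nuc-1* and 2.28-fold in Δ*nuc-3* (limma adjusted p = 0.0012 and 0.036).

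The nearest genes on either side of the 8 in the annotation used here are 16 in number, and many of them were too low to be tested. Of the 11 tested in Experiment 1, 2 were called higher at 0 mM. Of the 9 tested in Experiment 2 and the 7 tested in Experiment 3, 1 and 0 were called. One is NCU04447, which lies 894 bp from NCU04446 and was at 1.24, 2.79 and 3.58 TPM at 7 mM and at 14.6, 23.6 and 16.3 TPM at 0 mM (5.30-fold, limma adjusted p = 0.00064). NCU04447 was at 0 to 0.972 TPM in wild type at 12 h, where NCU04446 was at 75.6 to 154 TPM. The other one called is *pho-3*, in Experiments 1 and 2. It is 51383 bp from *mfs-24*, and the annotation used here may lack genes between them, so it may not be the adjacent gene. NCU09768, 158 bp from NCU09767, was listed at 0 in all 3 libraries at 7 mM and was at 7.504, 11.9 and 9.41 TPM at 0 mM, a mean under the 10 TPM that a call needs, and it was listed at 0 in all libraries of Δ*nuc-1* and of Experiment 3. NCU01056 overlaps the annotated end of *trm-50* by 35 bp and was at 3.10 to 4.53 TPM at 7 mM and 5.91 to 8.71 TPM at 0 mM. Whether the counting used the strand is not given in the sources used here, so reads of these 2 genes in the shared stretch cannot be told apart.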

How the data were processed

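RNA was measured by poly(A) RNA sequencing of 18 libraries in 3 experiments. The deposited TPM were estimated by the authors with Salmon 1.4.0 on transcripts of strain OR74A genome version 12. TPM hold no counts, so depth is unknown, no counting interval is given, and precision is the spread over 3 cultures. Read counts, on which the authors ran DESeq2, were not analysed here.

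Samples were grouped by the deposited labels. The 10697 transcript values were summed to 9774 genes (8.40% of genes had more than 1 transcript), and gene positions came from the RefSeq annotation of NC12, which matched 9773 genes. Within each comparison the 6 libraries were rescaled by the median of ratios. For Pearson's r all 18 libraries were rescaled together in the same way. Genes whose mean reached 1 TPM in one or both conditions entered limma 3.58.1 (lmFit, eBayes with trend, R 4.3.3), fitted to log2(TPM + 1), and p-values were adjusted by Benjamini-Hochberg over every gene tested. Called genes had an adjusted p under 0.05, a ratio of 4 or more (2 or more in Experiment 3) and a mean deposited TPM that reached 10 in one or both conditions. Intervals are at 95%. The fit was tested on simulated data.

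The 8 genes and the gene lists were chosen with earlier results of these data known. Genes named were the 8, for each the 3 genes highest in r, their annotated neighbors, *nuc-1* and *nuc-3* as checks, and the genes of largest change among those called in each list. Other genes named, such as the neighbors given in full, were chosen after their values were seen. Lists of other MFS genes and promoter motifs were planned but not made, because the annotation used here held no product names and no sequence. Alternatives were another or no rescaling, 0.1 added in place of 1, no filter, no TPM minimum, a fold from limma, robust spread, a joint fit, a replicate block, and each library left out. Python 3.11.15, pandas 2.3.3, NumPy 2.4.6, SciPy 1.17.1 and matplotlib 3.10.9 were used for tables and figures.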

Additional observations from a re-analysis of the deposited data

How the results depend on the processing

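The number of the 8 transporter genes called was 8 in Experiment 1 under all alternatives, and 3 in Experiment 2 under all but the one without a TPM minimum, which gave 4 by adding NCU09027 (log2 fold change −1.16). In Experiment 3 it was 0, and became 1 in the fit of all 18 libraries and 1 without the low library of each strain, by adding NCU09767 (log2 fold change 1.08 and 1.14). Leaving out single libraries kept these numbers at 8, 3 and 0. Of 392 values of single genes under alternatives, 389 kept their side of the call and 3 became called.

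Same-numbered libraries did not deviate together (r of −0.561 to 0.0469 between their deviations), so a replicate number is no pair. In Experiment 3, r was 0.552 between Δ*nuc-3* replicate 2 and wild-type replicate 1. It was 0.524 between Δ*nuc-3* replicate 3 and wild-type replicate 2, and −0.455 to 0.183 for the other differently numbered pairs. The block joins libraries by number, among them the replicates 2 of Experiment 3 with r = −0.561. With a replicate block the 8 genes gave 8, 3 and 0 calls, and the limma adjusted p of NCU09767 in Experiment 3 was 0.25. The count over all genes in Experiment 3 was less stable than that of the 8 genes. It was 51 higher and 7 lower, and 2 and 1 with the replicate block. Single libraries left out gave 4 to 39 higher and 1 to 11 lower. It was 23 higher without both low libraries, and 12 lower with 1 transcript per gene, the uppermost in the table. With TPM as deposited, 483 genes in place of 315 were called higher in Experiment 1 and 219 in place of 301 lower, and 4 were lower in Experiment 3. In Experiment 2, 63 genes in place of 103 were called higher with TPM as deposited, 63 with a fold from limma, and 14 at fewest when single libraries were left out, with 66 lower in the fit as reported and 83 with TPM as deposited. The causes were not tested.

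Depth is unknown, and genes under 10 TPM in both conditions, 4 of the 8 in Experiment 2 and 1 in Experiment 3, could not be called.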
